A study of Mus musculus with 18 samples.

Results

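The mRNA of p53 and of genes that it switches on was followed in mouse embryonic stem cells with and without a knockdown of HPRT, the purine salvage enzyme hypoxanthine guanine phosphoribosyltransferase. The genes were Trp53, which encodes p53, and 9 genes that p53 is known to induce (Cdkn1a, Mdm2, Ccng1, Trp53inp1, Gadd45a, Bax, Plk2, Perp and Btg2). They were found as the probes whose symbol on the array equals one of these names, which gave 10 genes with 20 probes out of 30869 symbols and 45281 probes. The cells were of the ESD3 line (labelled strain 129s2/SvPas), kept on mouse embryo fibroblast feeder cells before differentiation. WT control cells carried an shRNA against luciferase and HPRT-knockdown cells one against HPRT, both brought in by a virus that the labels call a retrovirus and the methods a lentivirus. Both were taken through dopaminergic differentiation by way of spherical neural masses (SNM). At the ES, SNM and final neuronal stages RNA was measured on Illumina MouseWG-6 v2 bead arrays, with 3 arrays per condition and 6 conditions in all. Each condition was 1 pool of purified RNAs from 1 transduced line, and the methods do not give the number of cultures. The pool was measured on its 3 arrays, so SDs and p-values cover the error of measurement and not the spread between cultures.

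p53 is a transcription factor that is held at a low level by Mdm2, the ubiquitin ligase that marks it for destruction and is itself a p53 target. When DNA is damaged or nucleotides run short, p53 is freed and induces genes that halt the cell cycle, help repair DNA or lead to cell death. The level of its mRNA says little about its activity, which is set mainly on the protein, and several of its targets are also switched on in differentiating cells by other factors. p53 binds a response element made of a pair of decamers, short sequences of a known consensus.

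The sequences just before the starts of these genes are shown because 8 of the genes were lower together in HPRT-knockdown cells at the SNM stage, and the genes were chosen as p53 targets. RefSeq promoter windows (GRCm38.p6) were found for 8 of the 10 genes, with 2 starts for Cdkn1a and none for Trp53inp1 or Perp, and the 250 bases before each start were searched for the p53 consensus decamer, which reads alike on both strands. A match was present in 6 of the 9 windows (66.7%), against 7.13% of all 32851 windows of this length. The genes were picked as known p53 targets, so this share says nothing of the knockdown. Single decamers with no mismatch were searched for, and their pairing into response elements was not looked at. The matches, in capitals below, lay between bases 51 and 42 and between bases 73 and 64 before the first start of Cdkn1a, between bases 186 and 177 for Mdm2 and between bases 40 and 31 for Gadd45a. Windows of Trp53, Ccng1 and Bax each held 1 match, and those of Plk2, Btg2 and the second start of Cdkn1a, 2790 bases further on, held none. The windows of 3 genes with a match and of Plk2, which changed most in the knockdown, read as follows.
Cdkn1a, chr17:29090729-29090978, plus strand: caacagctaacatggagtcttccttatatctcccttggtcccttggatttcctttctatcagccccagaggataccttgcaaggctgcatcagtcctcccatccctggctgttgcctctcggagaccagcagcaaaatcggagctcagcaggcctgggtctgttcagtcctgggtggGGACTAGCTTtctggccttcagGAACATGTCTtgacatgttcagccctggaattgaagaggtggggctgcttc
Mdm2, chr10:117710759-117711008, minus strand: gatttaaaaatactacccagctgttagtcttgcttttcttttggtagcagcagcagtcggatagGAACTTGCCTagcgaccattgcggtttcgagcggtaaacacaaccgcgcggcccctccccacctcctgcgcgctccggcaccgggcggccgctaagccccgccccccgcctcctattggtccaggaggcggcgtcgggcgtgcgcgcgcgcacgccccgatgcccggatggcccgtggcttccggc
Gadd45a, chr6:67037408-67037657, minus strand: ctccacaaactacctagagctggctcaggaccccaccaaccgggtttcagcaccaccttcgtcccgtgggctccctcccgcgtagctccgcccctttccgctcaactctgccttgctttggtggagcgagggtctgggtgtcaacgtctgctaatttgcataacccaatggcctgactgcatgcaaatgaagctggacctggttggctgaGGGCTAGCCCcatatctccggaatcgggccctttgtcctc
Plk2, chr13:110394794-110395043, plus strand: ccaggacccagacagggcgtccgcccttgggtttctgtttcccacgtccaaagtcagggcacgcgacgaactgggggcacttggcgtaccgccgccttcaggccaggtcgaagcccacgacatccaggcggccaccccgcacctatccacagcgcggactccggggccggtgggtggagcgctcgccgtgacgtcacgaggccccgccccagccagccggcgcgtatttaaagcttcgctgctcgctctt
A match is a likeness of letters and says nothing of binding in these cells.

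Signals were corrected for background, quantile-normalized and put on the log2 scale, and a probe counted as detected on an array at a detection p-value under 0.05. A change was called when it reached 1.5-fold (0.585 on the log2 scale) and limma's p-value, adjusted by Benjamini-Hochberg over all probes tested, was under 0.05. Each gene is given by its brightest probe. Hprt1, the targeted gene, was lower in HPRT-knockdown cells throughout, with log2 fold changes of -4.09 (ES), -1.76 (SNM) and -4.45 (neuronal stage). The arrays each detected between 18827 and 22202 probes, and the conditions differed widely in markers of other cell types. Summed signals here and below add the deposited signals of a list on each array, with no background correction or normalization. Undetected probes thus add background to each sum. The third Trp53 probe, undetected, read between 59.95 and 75.27 in HPRT-knockdown cells of the neuronal stage. Of 11 skeletal muscle genes, all 11 were detected in control cells of the neuronal stage, with summed signals between 66810 and 81110, and 5 in HPRT-knockdown cells, with sums between 912.6 and 1049 and Myog, Myod1, Tnnt3 and Ckm undetected. Of 11 oligodendrocyte genes, 8 were detected in control cells (summed signals 7621 to 8975, Mog undetected) and 11 in HPRT-knockdown cells (62030 to 71770). The 10 fibroblast genes were all detected in both, with sums of 22110 to 25220 in control and 11390 to 15300 in HPRT-knockdown cells. Of 11 neuronal genes, 9 were detected in control and 8 in HPRT-knockdown cells of the neuronal stage. Snap25 and Nefl were undetected in both and Tubb3 in HPRT-knockdown cells. Their summed signals were 10900 to 13040 in control and 5880 to 7176 in HPRT-knockdown cells, and of 9 tested 6 were called lower and 0 higher. The part of these differences in the results below was not tested, and in such mixtures fewer cells of a type and less RNA per cell cannot be told apart.

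**Figure D1:**
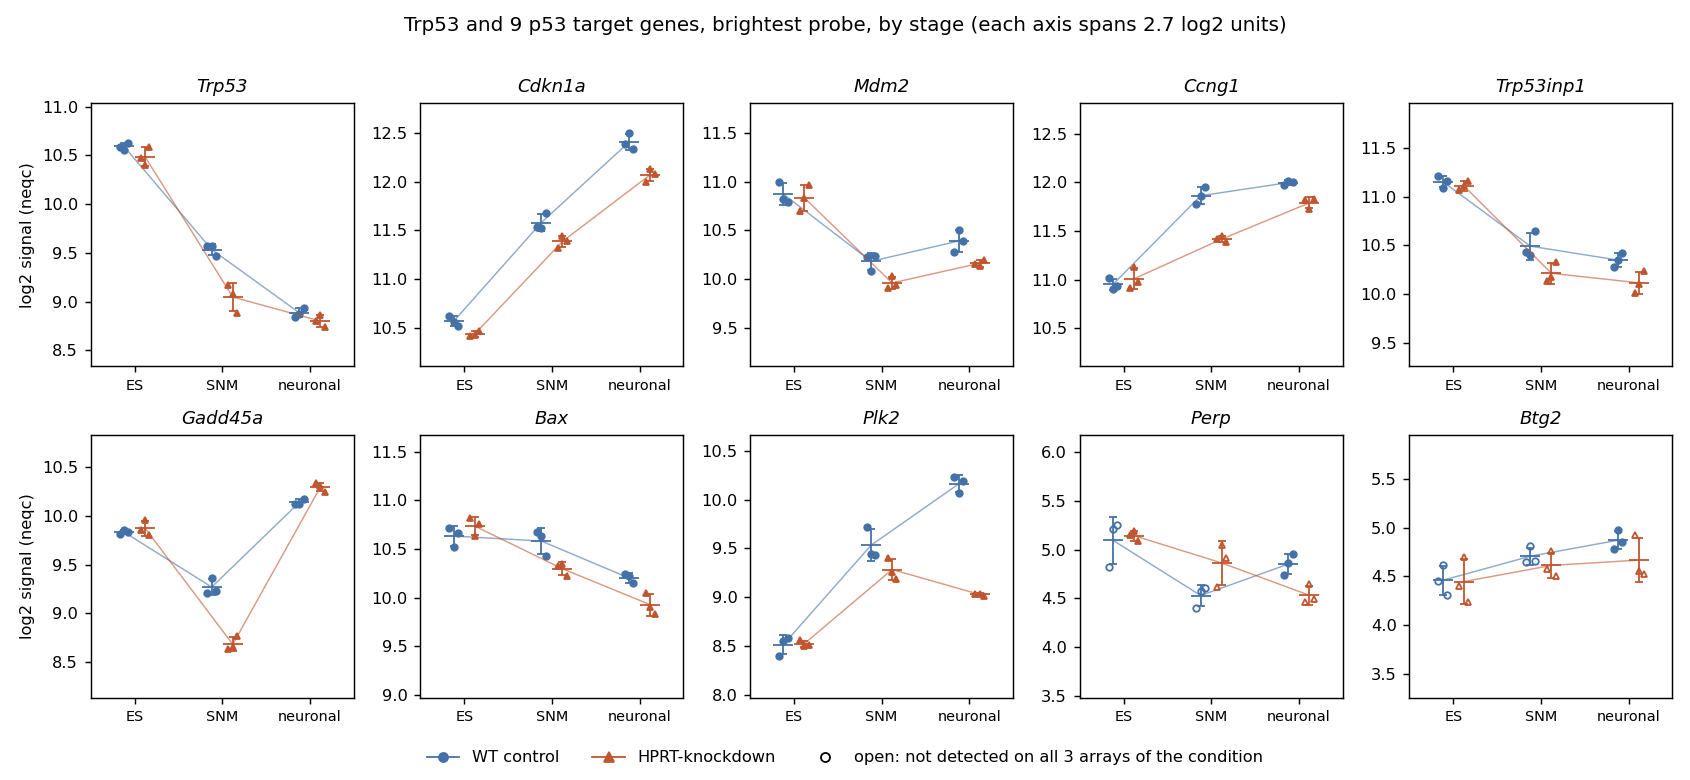
Log2 signal of the brightest probe of each gene (vertical axes, each 2.7 log2 units tall) on the 3 arrays of WT control cells (blue circles) and HPRT-knockdown cells (orange triangles) at the ES, SNM and neuronal stages. Horizontal marks and bars are means and SDs over 3 arrays, and open symbols mark conditions where the probe was not detected on all 3 arrays. Cdkn1a rose at each step in both cell types, Trp53 fell from ES to SNM in both, and Plk2 parted at the neuronal stage, with means of 10.16 in control and 9.03 in HPRT-knockdown cells.

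In undifferentiated cells no p53 gene differed by as much as 1.5-fold between the cell types. Of the 10 genes 9 were tested (Btg2, an antiproliferative gene, was not detected), and limma called 0 higher and 0 lower, while 0.516% of all tested probes were called higher and 1.17% lower. With no minimum fold, a reading chosen after the values were seen, limma again called 0 in either direction, against 5.8% of all probes higher and 5.51% lower. The log2 fold changes lay between -0.13 for Cdkn1a and 0.10 for Bax, with a median of 0.01, the same as the median of 0.01 over all probes. At an unadjusted p-value under 0.05, 1 gene (Cdkn1a) was lower and 0 were higher, and the methods' t-test called 0 at 1.5-fold. Trp53 signals were 10.59, 10.56 and 10.63 in control and 10.47, 10.40 and 10.59 in HPRT-knockdown cells. The 2 groups overlapped, and the log2 fold change was -0.11 with a 95% interval from -0.26 to 0.04 (adjusted p = 0.381, limma). A second, dim probe for Trp53, detected at this stage alone, differed by -0.41 (adjusted p = 0.0104, limma). Cdkn1a, which encodes the cyclin-dependent kinase inhibitor p21, read 10.62, 10.56 and 10.52 in control and 10.42, 10.43 and 10.47 in HPRT-knockdown cells. All 3 knockdown arrays were below the control arrays, by 1.10-fold on average, which did not pass the test (adjusted p = 0.181, limma). Among the 9 tested genes the widest 95% interval was that of Perp, from -0.20 to 0.30.

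At the SNM stage every p53 gene that could be tested was lower in HPRT-knockdown cells, and on the brightest probes Gadd45a alone reached 1.5-fold. Of 8 tested genes, 1 was called lower and 0 higher (limma, with 0 higher at an unadjusted p under 0.05 and by the methods' t-test), against 8.9% of all tested probes called lower and 11% called higher. At an adjusted p-value under 0.05 with no minimum fold all 8 were lower, against 27.9% of all probes. Their median log2 fold change was -0.28, and that of all probes was -0.04. On the brightest probe of each of the 8 genes, the 3 knockdown arrays lay below the 3 control arrays. The share of all probes that were separated in this way was not counted.

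Gadd45a, a growth arrest gene whose protein also takes part in DNA repair, read 9.21, 9.37 and 9.23 in control and 8.63, 8.65 and 8.76 in HPRT-knockdown cells of the SNM stage. The groups were well apart, and the log2 fold change was -0.59 (SE 0.058, adjusted p = 4.33e-07, limma), a fall that lay just past 1.5-fold. Its second probe differed by -0.55 (adjusted p = 3.39e-06, limma), short of that size. The call was lost without knockdown array 1 (-0.56), without knockdown array 2 (-0.57), without control array 2 (-0.54) and under 4 of the other settings listed at the end, while every one of these values stayed negative.

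Trp53 itself read 9.57, 9.56 and 9.46 in control and 9.17, 9.08 and 8.89 in HPRT-knockdown cells. The groups did not overlap, with a log2 fold change of -0.49 (SE 0.071, adjusted p = 2.82e-05, limma). Ccng1, which encodes cyclin G1, a partner of protein phosphatase 2A that acts back on Mdm2, read 11.78, 11.86 and 11.95 in control and 11.42, 11.45 and 11.39 in HPRT-knockdown cells. That is 1.36-fold lower (log2 fold change -0.44, adjusted p = 1.82e-05, limma), and its other probes differed by -0.60, which passed 1.5-fold and was called (adjusted p = 1.97e-05, limma), and by -0.49. The remaining tested genes were lower by less. Bax, the pore-forming protein of the mitochondrial death pathway, differed by -0.28, and Trp53inp1, a stress protein that supports p53 in cell death and autophagy, also by -0.28. Plk2, a kinase of the polo family, differed by -0.25, Mdm2 by -0.22 and Cdkn1a by -0.19, with adjusted p-values between 0.00663 and 0.0277 from limma. With 1 array left out, 6 to 8 genes stayed below 0.05. Mdm2 was above it without control array 1 (0.0859) or 3 (0.0899) and without knockdown array 1 (0.0891) or 3 (0.0699), Plk2 without control array 1 (0.0979) or knockdown array 3 (0.0716), and Cdkn1a without knockdown array 1 (0.060) or control array 3 (0.073). For Cdkn1a the other probes differed by -0.18 and -0.12, with overlapping arrays and adjusted p-values of 0.122 and 0.305 from limma. Perp, a membrane protein of epithelial junctions linked to p53-dependent death, was undetected on all 3 control arrays and detected on 2 knockdown arrays, at least 1.07-fold higher, and was not tested. Btg2 was detected on 1 array of each cell type and was not tested either. With the methods' t-test and Benjamini-Hochberg adjustment, 3 of the 8 genes were below 0.05. The share of all probes under that test was not counted.

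The marker lists also differed between the SNM pools. Of 11 oligodendrocyte genes, 10 were detected in control cells (summed signals 9985 to 11490) and 8 in HPRT-knockdown cells (4272 to 5019, Mog undetected), and all 7 astrocyte genes were detected in both, with sums of 6426 to 7544 and 10900 to 13320. Of 10 tested skeletal muscle genes 8 were called higher and 0 lower, with sums of 2344 to 2461 in control and 3846 to 4226 in HPRT-knockdown cells and Ckm undetected in both. Of 9 tested pluripotency genes 4 were called lower and 0 higher, with sums of 12790 to 14790 and 8323 to 9996 and Fgf4 undetected in both. Their part in the p53 genes' values was not tested.

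**Figure D2:**
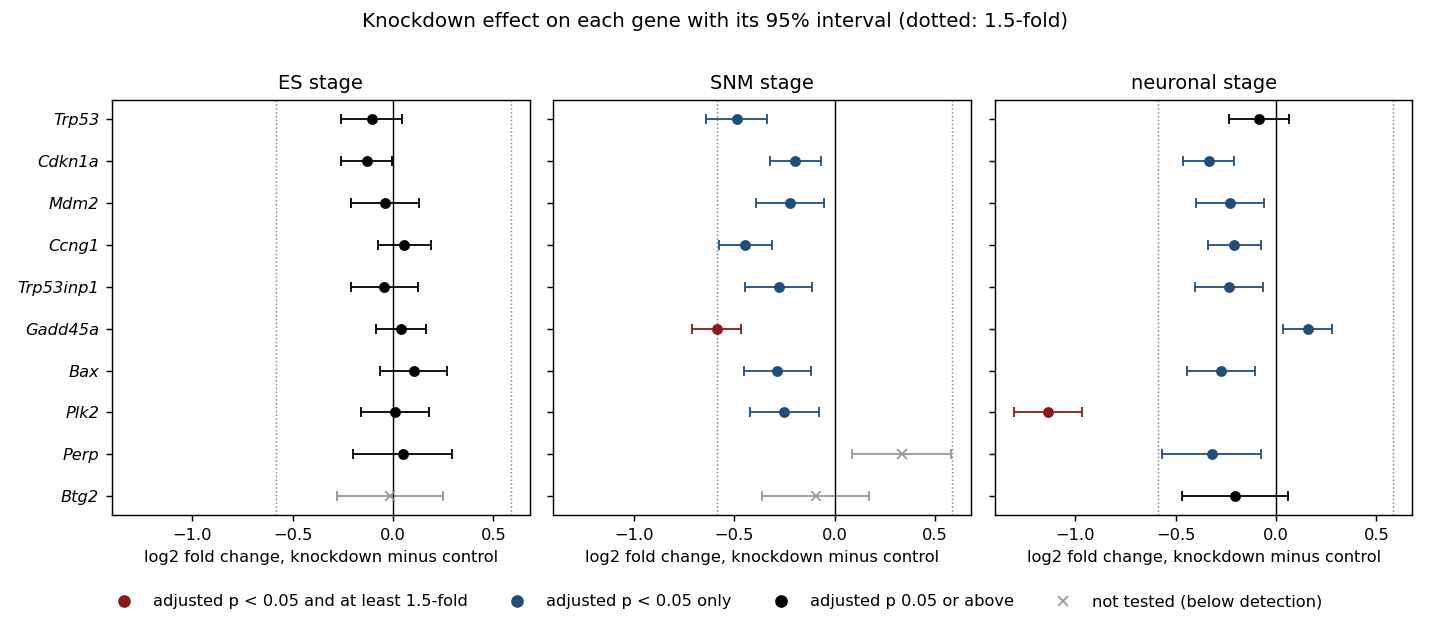
Log2 fold change between HPRT-knockdown and control cells (horizontal axes) of the brightest probe of each gene at the 3 stages, with 95% intervals from limma. Dotted lines mark 1.5-fold, red points changed by at least that much at an adjusted p-value under 0.05, blue points passed the p-value alone, and grey crosses were not tested. The ES points lie between -0.13 and 0.10, the 8 genes tested in SNM lie below 0, and Plk2 stands apart at -1.13 among the neuronal points.

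In the final cultures the one called difference was that of Plk2, which fell by more than 2-fold. All 10 genes were tested. Limma called 1 lower and 0 higher, against 13.5% of all tested probes called lower and 13.9% called higher. By limma's unadjusted p under 0.05, with no minimum fold, 1 was higher. The methods' t-test called 0 higher at 1.5-fold. At an adjusted p-value under 0.05 with no minimum fold, 7 of the 10 were lower and 1 was higher, against 28.8% and 29.4% of all probes. Perp, 1 of the 7, entered the test through its detection on the control arrays alone. At the SNM stage, where it read higher in HPRT-knockdown cells, the detection filter left it out. The median log2 fold change of the 10 genes was -0.23, and that of all probes was 0.01. With scaling to the 75th percentile in place of background correction and quantile normalization, 3 genes were lower at any fold. The share of all probes at any fold under that scaling was not counted.

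Plk2 read 10.23, 10.06 and 10.19 in control and 9.03, 9.03 and 9.01 in HPRT-knockdown cells. No array of one group came near the other, and the log2 fold change was -1.13 (SE 0.08, 95% interval -1.30 to -0.96, adjusted p = 4.16e-09, limma), or 2.20-fold. Leaving out 1 array at a time gave values between -1.18 and -1.10. The array held 1 probe for Plk2, so no second probe bears on this value. In these same RNA pools, the summed muscle, fibroblast and neuronal signals given above were lower in HPRT-knockdown cells and the oligodendrocyte sums higher. Of 9 tested pluripotency genes 8 were called lower and 0 higher, and of 7 tested astrocyte genes 5 were called higher and 0 lower. Of all probes 13.5% were called lower and 13.9% higher. The part of these marker differences in the Plk2 value was not tested.

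Cdkn1a read 12.39, 12.49 and 12.33 in control and 12.00, 12.13 and 12.08 in HPRT-knockdown cells. The groups did not overlap and differed by -0.34 (SE 0.06, adjusted p = 0.000168, limma), 1.26-fold, and its other probes by -0.38 and -0.45. Bax differed by -0.27, Trp53inp1 and Mdm2 by -0.23 each, Ccng1 by -0.21 and Perp by -0.32, with adjusted p-values between 0.00738 and 0.0272 from limma. With 1 array left out, 5 to 7 of the 10 genes were lower at any fold. Perp was above 0.05 without knockdown array 1 (0.0846) or 3 (0.0719) and without control array 2 (0.0618) or 3 (0.0986), Mdm2 without knockdown array 1 (0.0508) or 2 (0.0627) or control array 2 (0.104), and Trp53inp1 without knockdown array 1 (0.0889) or control array 3 (0.0766). Perp was detected on all 3 control arrays and on 0 knockdown arrays, so its difference is given as at least 1.08-fold lower. Second probes were not all alike, with -0.01 for that of Mdm2 (adjusted p = 0.926, limma) and -0.19 for that of Trp53inp1 (adjusted p = 0.0811, limma).

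Gadd45a differed in the other direction at the neuronal stage, with 10.12, 10.12 and 10.18 in control and 10.34, 10.31 and 10.25 in HPRT-knockdown cells. The knockdown arrays lay above the control arrays by 0.16 on the log2 scale (adjusted p = 0.0283, limma), and its second probe by 0.31 (adjusted p = 0.00068, limma), both short of 1.5-fold. For the brightest probe the adjusted p-value rose above 0.05 without array 1 of control (0.0722) or of knockdown (0.0905) and without array 2 of control (0.0763) or of knockdown (0.0679). Trp53 no longer differed detectably, with 8.84, 8.87 and 8.94 in control and 8.80, 8.86 and 8.74 in HPRT-knockdown cells. The groups overlapped, and the log2 fold change was -0.08 with a 95% interval from -0.23 to 0.07 (adjusted p = 0.335, limma). Btg2 read between 4.79 and 4.97 in control and between 4.52 and 4.93 in HPRT-knockdown cells, near the limit of detection, with an adjusted p-value of 0.176 from limma.

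The knockdown effects of 2 genes differed between the SNM and neuronal stages on well detected probes, as tested by the difference of the differences in the same limma model. For Gadd45a this was 0.74 (SE 0.082, adjusted p = 1.42e-06, limma), from lower in HPRT-knockdown cells at the SNM stage to slightly higher at the neuronal stage. For Plk2 it was -0.89 (SE 0.113, adjusted p = 7.82e-06, limma), a larger deficit at the neuronal stage. Perp was called as well, at -0.65 (adjusted p = 0.00385, limma), on signals at the limit of detection. In all, 1 gene was called higher and 2 lower of 10 tested, against 13.7% and 14.8% of all probes. Between the ES and SNM stages 1 of 9 tested genes was called lower and 0 higher (unadjusted p under 0.05: 0 higher), against 9.61% and 11.7% of all probes. The called gene was Gadd45a, at -0.63 (SE 0.082, adjusted p = 1.83e-05, limma), which fell short of 1.5-fold without knockdown ES array 2 or control SNM array 2 (-0.58 each). Trp53 changed its knockdown effect by -0.38 from ES to SNM and by 0.40 from SNM to neuronal stage, neither reaching 1.5-fold. The knockdown itself was shallower at the SNM stage, with Hprt1 at -1.76 against -4.09 (ES) and -4.45 (neuronal stage). The part of this in the differences between stages was not tested.

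Across differentiation the p53 genes moved in both directions and the called genes that both cell types share moved the same way in each. These steps use the same arrays as the comparisons above. From ES to SNM in control cells 3 of 8 tested genes rose and 3 fell, against 23.7% and 25.4% of all probes. Ccng1 is among those that rose by its brightest probe alone, while its other probes were called lower, as given below. In HPRT-knockdown cells 2 of 9 rose and 4 fell, against 26.4% and 30.9%. From SNM to the neuronal stage 3 of 10 rose and 1 fell in control cells, against 14.3% and 15.1%. At that step 2 of 8 rose and 0 fell in HPRT-knockdown cells, against 13.8% and 14.8% (limma). There 3 were lower at limma's unadjusted p under 0.05 with no minimum fold, and 0 by the methods' t-test at 1.5-fold. Perp and Btg2 account for the genes not tested, and both were not tested from ES to SNM in control cells and from SNM to the neuronal stage in HPRT-knockdown cells.

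Trp53 mRNA fell as the cells left the ES stage. Its mean log2 signals in control cells were 10.59 (ES), 9.53 (SNM) and 8.88 (neuronal stage), with SDs between 0.035 and 0.060, and the 3 groups did not overlap. The steps were -1.06 (adjusted p = 9.71e-10, limma) and -0.65 (adjusted p = 7.87e-07, limma). In HPRT-knockdown cells the means were 10.48, 9.05 and 8.80. The fall from ES to SNM was -1.44 (adjusted p = 1.35e-11, limma), and the further step of -0.25 did not reach 1.5-fold. The second probe of Trp53 was detected only at the ES stage and the third on no array, so the later values rest on 1 probe.

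Cdkn1a rose at both steps in both cell types, against the direction of Trp53 mRNA. Control means were 10.57, 11.58 and 12.41 and knockdown means 10.44, 11.39 and 12.07, with no overlap between stages. The steps were 1.01 and 0.83 in control and 0.95 and 0.68 in HPRT-knockdown cells, with adjusted p-values of at most 6.91e-08 from limma, and all 3 probes were called higher at each step. Gadd45a went down and then up. Its control means were 9.83, 9.27 and 10.14, and knockdown means 9.87, 8.68 and 10.30. Its fall from ES to SNM was -1.19 in HPRT-knockdown cells (adjusted p = 1.12e-11, limma), while the -0.56 of control cells stayed just short of 1.5-fold. The control step passed that size on the second probe (-0.74), without control SNM array 2 (-0.61), with scaling to the 75th percentile (-0.62) and with the mean over probes (-0.65). The rise to the neuronal stage was 0.87 in control cells. In HPRT-knockdown cells it was 1.61, a 3.06-fold increase (adjusted p = 1.18e-12, limma).

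Plk2 had means of 8.51, 9.53 and 10.16 in control cells over the 3 stages, with rises of 1.02 (adjusted p = 7.09e-09, limma) and 0.63 (adjusted p = 4.4e-06, limma). The second step fell short of 1.5-fold without control SNM array 2 or control SNM array 3 (0.58 each) and with scaling to the 75th percentile (0.49). In HPRT-knockdown cells it rose from 8.52 to 9.28, a step of 0.76 (adjusted p = 2.11e-07, limma), and then stood at 9.03, a difference of -0.26 from the SNM stage (adjusted p = 0.0113, limma). Mdm2 fell from ES to SNM by 0.69 in control cells and by 0.87 in HPRT-knockdown cells on the log2 scale, and Trp53inp1 fell by 0.66 and by 0.90. At the next step both stayed within 1.5-fold, with values between -0.14 and 0.21. Bax showed no called step, with values between -0.44 and -0.05, except that with scaling to the 75th percentile its step from ES to SNM in HPRT-knockdown cells was called, at -0.72.

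The 3 probes for Ccng1 disagreed on its course from ES to SNM. On the brightest probe the control mean went from 10.95 to 11.86, a rise of 0.91 (adjusted p = 1.2e-09, limma). On the second probe it went from 11.36 to 10.56, a fall of -0.81 (adjusted p = 2.6e-07, limma), and on the third from 10.57 to 9.62, a fall of -0.95 (adjusted p = 5.67e-07, limma). In HPRT-knockdown cells the same step was 0.41 on the brightest probe and -1.25 and -1.18 on the others. No direction over differentiation is therefore given for the gene. The knockdown arrays lay below the control arrays on all 3 probes at both later stages.

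**Figure D3:**
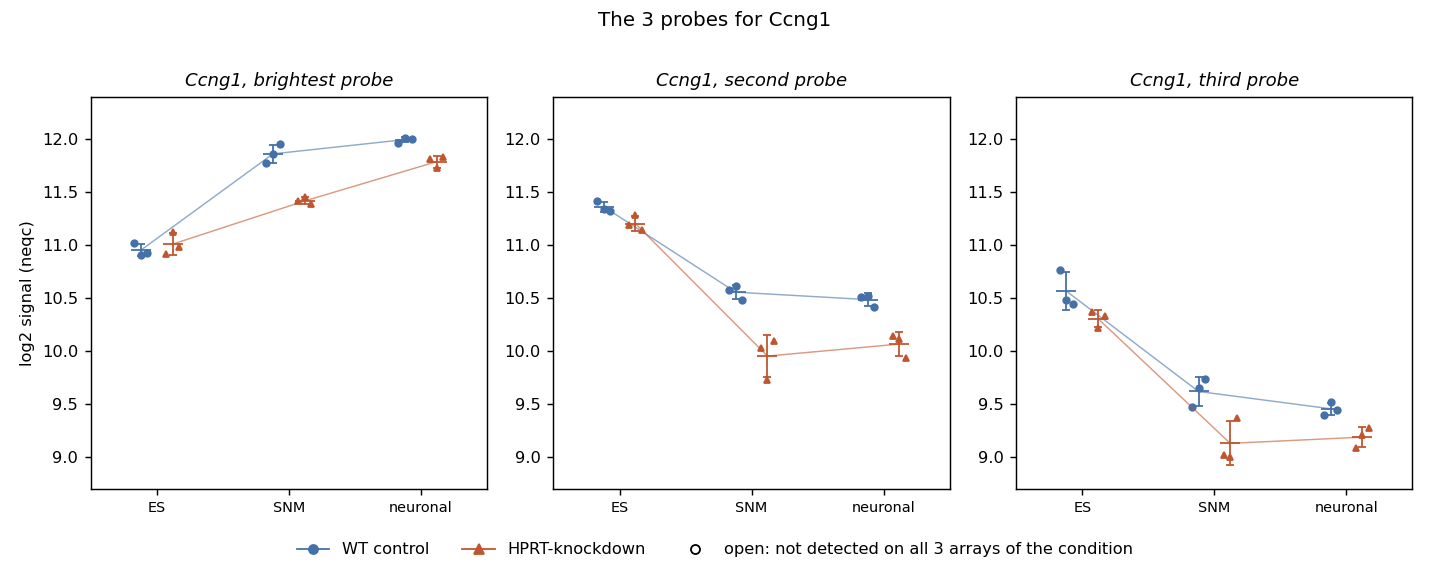
Log2 signal of the 3 probes for Ccng1 (vertical axes, on one scale) on the 3 arrays of WT control (blue circles) and HPRT-knockdown cells (orange triangles) at each stage, with means and SDs over 3 arrays. From ES to SNM the brightest probe goes up in control cells, from 10.95 to 11.86, and the other probes go down, while at both later stages the knockdown arrays lie lower on all 3 probes.

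A list of 48 other p53 targets, of which 45 are on the array, was taken beside the 10 genes. At the ES stage 0 of its 41 tested genes were called by limma in either direction (unadjusted p under 0.05: 6 higher and 6 lower, and the methods' t-test called 0 at 1.5-fold). At the SNM stage 5 of 41 rose (3 without knockdown array 1 or knockdown array 2) and 11 fell, with a median of -0.36, against 11% of all probes higher, 8.9% lower and a median of -0.04. At the neuronal stage 6 of 40 rose and 6 fell, with a median of -0.03, shares near the 13.9% higher and 13.5% lower of all probes. The largest falls at the SNM stage were those of Plk3, a stress kinase of the polo family (-1.31, adjusted p = 8.71e-10, limma), Gtse1, a mitotic protein that restrains p53 (-1.12), and Psrc1, a spindle protein (-0.96). Ephx1, a detoxifying epoxide hydrolase (0.81), Ddb2, which recognises ultraviolet damage in DNA (0.73), and Sesn1, a stress-induced inhibitor of growth signalling (0.61), rose. At the neuronal stage Gdf15, a secreted stress hormone, rose by 1.73 (adjusted p = 5.42e-09, limma), Abhd4, a lipid hydrolase, by 1.67, and the death receptors Fas and Tnfrsf10b by 1.20 each. Gtse1 (-1.22), Ak1, an adenylate kinase abundant in muscle (-1.08), and Siva1, a death-domain partner (-0.75), fell, in pools whose muscle signals differed as given above. The 2 death receptors read opposite ways at the SNM stage, where Fas rose by 0.60 and Tnfrsf10b fell by 0.73. Bbc3, the death effector Puma, differed by -0.45 in SNM cells and by 0.04 in the final cultures and was called in neither.

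**Figure D4:**
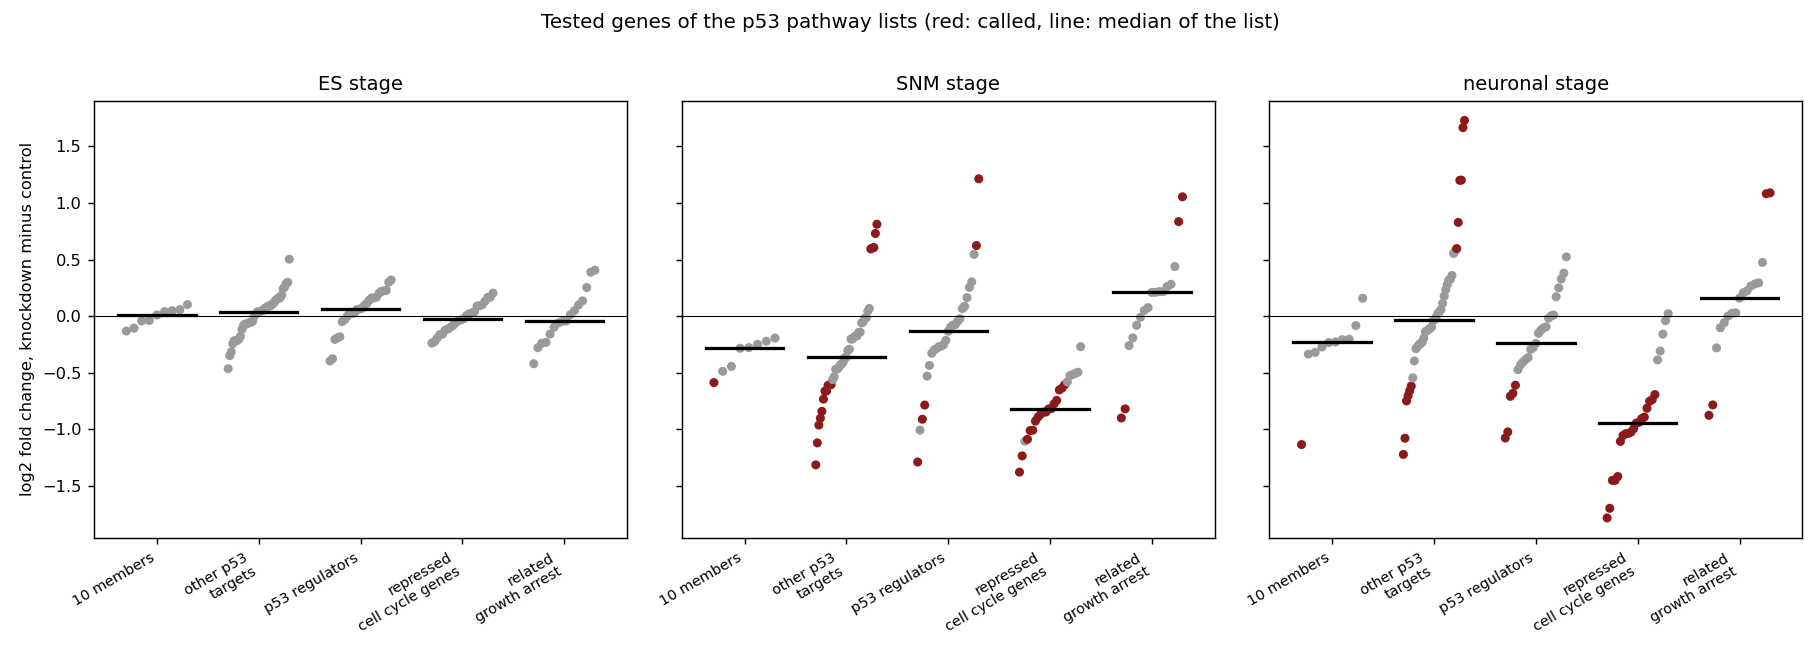
Log2 fold change between HPRT-knockdown and control cells (vertical axis) of each tested gene of the 10 p53 genes and of 4 p53 pathway lists at the 3 stages. Red points were called, grey points were not, and black lines are medians of the tested genes. At the ES stage no point is red, and at the later stages the cell cycle genes lie lowest, with medians of -0.82 and -0.94.

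Genes that act on p53 or that p53 holds down were counted in the same way. Of 26 cell cycle genes known to be lowered when p53 is active, 17 of 24 tested fell and 0 rose at the SNM stage (median -0.82, against 8.9% of all probes lower, 11% higher and a median of -0.04). In the final cultures 19 of 24 fell and 0 rose (median -0.94, against 13.5% lower, 13.9% higher and 0.01 for all probes), by limma, with 0 higher at an unadjusted p-value under 0.05 in either case. At the SNM stage the largest falls were those of Rrm2, a ribonucleotide reductase subunit (-1.38), Ccne1, cyclin E1 (-1.24), and Cdc25a, a phosphatase that frees cyclin-dependent kinases (-1.09). At the neuronal stage they were those of Mcm5, of the replicative helicase (-1.78), Tyms, thymidylate synthase (-1.70), and, at -1.45 each, Rrm2 and the transcription factor Mybl2. At the ES stage 0 of the 24 tested genes were called by limma, with 3 lower and 0 higher at an unadjusted p-value under 0.05. The parts of p53, of cell division and of cell mixture in the values of this list were not tested.

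Of 32 regulators of p53, 30 of them on the array, 2 of 27 tested rose and 3 fell at the SNM stage, and 0 of 25 rose and 5 fell at the neuronal stage (limma, with 4 higher at an unadjusted p under 0.05). Of all probes, 11% were higher and 8.9% lower in SNM cells and 13.9% and 13.5% in the final cultures, so the SNM shares of this list lay near those of all probes. Cdkn2a, which encodes the Mdm2 inhibitor Arf and the kinase inhibitor p16, fell by 1.29 in SNM on the log2 scale (adjusted p = 1.95e-09, limma) and differed by -0.12 at the neuronal stage. Chek1, a checkpoint kinase, fell by 0.91 in SNM cells, and in the final cultures it was undetected in HPRT-knockdown cells and at least 1.65-fold lower. Sirt1, a deacetylase of p53, fell by 0.79 and 0.61 at these stages. Ppp1r13b, which steers p53 to death genes, rose by 1.21 in SNM cells and fell by 0.68 in the final cultures, and Trp53bp1, a DNA damage mediator, fell by 0.71 there. Trp63, a p53 relative, was near background, at least 1.19-fold higher in HPRT-knockdown cells at the SNM stage and at least 1.52-fold lower at the neuronal stage. Mdm4, the partner of Mdm2, differed by -0.08 and -0.10 and was not called.

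Among 17 related growth arrest and survival genes, 2 rose and 2 fell in SNM cells, and the same numbers in the final cultures. These shares lay near those of all probes, of which 11% were higher and 8.9% lower in SNM cells and 13.9% and 13.5% in the final cultures. Gadd45b, a paralog of Gadd45a, rose by 1.05 in SNM cells and by 1.09 in the final cultures (adjusted p = 1.44e-09, limma), and Gadd45g, the other paralog, rose by 1.08 at the neuronal stage. Cdkn1c, a kinase inhibitor related to p21, fell by 0.90 (log2) in SNM cells, where Bcl2, which blocks cell death, rose by 0.83. Plk4, the polo family kinase of centriole duplication, fell by 0.82 in SNM cells and by 0.78 in the final cultures, where the death effector Bcl2l11 fell by 0.88.

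The genes most like Trp53 and Cdkn1a in their course were sought among 9201 other genes detected in some condition and varying by at least 1 log2 unit, by Pearson correlation of the 6 condition means. For Trp53 they were 2300008H03Rik (r = 0.9994), Tmem48 (0.9993) and 2310031L18Rik (0.9993). For Cdkn1a they were Thy1, a surface protein of neurons and fibroblasts (0.9968), Nov, a secreted matrix protein (0.9964), and Wbscr17 (0.994). The points are 6 means over shared arrays, and the correlations are given as a description.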

How the data were processed

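Total RNA of the 18 arrays was labelled as biotinylated cRNA by the authors. They deposited, per array and probe, the signal intensity with no background correction or normalization and a detection p-value, and the deposited annotation gave the gene symbols and chromosomes. A further 72 columns of per-sample values in the annotation table matched no sample label and were not used. Conditions came from the sample titles. No arrays were identical, and array number limits the precision of every mean.

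Signals were processed with neqc of limma 3.58.1 (R 4.3.3), which estimates background from the detection p-values, with an offset of 16. One limma model with 6 conditions was fitted to 18 arrays, and every test is two-sided. A probe was tested if detected (p under 0.05) on all 3 arrays of 1 compared condition. Bounds set an undetected probe at the lowest detected signal of each array, or at its own where higher. With 3 arrays a side, exact permutation reaches no p-value under 0.1.

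The members, the gene lists and the tests were chosen with earlier results of these data known. The genes named are the 10 members, Hprt1, up to 3 called genes with the largest rise and 3 with the largest fall in each of 4 lists and comparisons of knockdown and control, and the 3 most similar genes of Trp53 and Cdkn1a. Fas, Tnfrsf10b in SNM cells, Cdkn2a, Ppp1r13b and Sirt1 in the final cultures, Bbc3, Mdm4 and whichever of Rrm2 and Mybl2 ranked below the 3 were chosen after their values were seen.

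Alternatives were, with no background correction, quantile normalization or scaling to the 75th percentile, an offset of 50, no detection filter, the mean over a gene's probes, a 2-fold minimum, only the arrays compared, the array number as a block, the methods' t-test and leaving out each array. Same-numbered arrays deviated together from their condition means between knockdown and control cells in SNM (correlations across probes 0.486, 0.108 and 0.489). So did SNM and neuronal arrays of HPRT-knockdown cells (0.522, 0.139 and 0.511). In no other comparison did all 3 pairs reach 0.108. Between knockdown and control cells of the neuronal stage the correlations were 0.605, 0.0938 and 0.325.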

Additional observations from a re-analysis of the deposited data

Results flagged for a closer look

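The effect of the knockdown differed between stages for Gadd45a, Plk2 and Perp in tests of the difference itself. For Gadd45a the effect changed by -0.63 on the log2 scale from the ES to the SNM stage (adjusted p = 1.83e-05, limma) and by 0.74 from there to the neuronal stage (adjusted p = 1.42e-06, limma), so that the SNM stage stood apart from both. For Plk2 it changed by -0.89 between the later stages (adjusted p = 7.82e-06, limma). For Perp the change of -0.65 (adjusted p = 0.00385, limma) joins signals that were undetected on all 3 control arrays at the SNM stage and on all 3 knockdown arrays at the neuronal stage. It fell short of 1.5-fold without knockdown SNM array 2 (-0.56). Hprt1 itself was lowered less at the SNM stage (-1.76) than at the ES (-4.09) and neuronal stages (-4.45). The part of this in the 3 genes' values was not tested.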

How the results depend on the processing

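Values rest on 1 RNA pool per condition, so no alternative bears on the spread between cultures, and Perp and Btg2 lay at the limit of detection. The fall of Plk2 in HPRT-knockdown cells of the neuronal stage was called under every alternative at 1.5-fold, from -0.996 with scaling to the 75th percentile to -1.18 with an array left out. Plk2 has 1 probe, so the mean over probes repeats its main value. Alternatives that alter only the test or the detection filter also leave the size of the fall unchanged by construction. Of the values for single genes, with Hprt1 among them, 817 kept their direction and side of the threshold over the alternatives that keep all arrays. A further 28 were no longer past it, 4 newly were, and 9 changed sign. Those lost with the 2-fold minimum were unchanged values under a higher threshold, and the cause of the other changes was not tested.

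With a 2-fold minimum, by its construction fewer genes were counted. Of the 10 genes, 0 were lower in SNM knockdown cells. From ES to SNM 1 was lower in control cells, and 2 were lower and 0 higher in HPRT-knockdown cells. From SNM to the neuronal stage 0 were higher and 0 lower in control cells, and 1 was higher in HPRT-knockdown cells. The knockdown effect was lower for 0 genes between the ES and SNM stages, and higher for 0 and lower for 0 between the later stages. Of the other p53 targets, 0 were higher and 2 lower in SNM cells, and 2 were lower at the neuronal stage.

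The call of Gadd45a in SNM knockdown cells, the only one there, was lost (0 lower) with quantile normalization without background correction (-0.54), an offset of 50 (-0.55) and the mean over probes (-0.57). The knockdown effect between the ES and SNM stages was then lower for 0 genes with quantile normalization and with the mean over probes, and for 2 with the 75th percentile, where Ccng1 passed 1.5-fold (-0.64). Between the later stages it was lower for 1 gene with quantile normalization, 1 with the 75th percentile and 1 with an offset of 50, where Perp was at -0.32, -0.31 and -0.29. With the mean over probes 0 genes were lower in control cells from SNM to the neuronal stage, where Trp53 was at -0.32. The other p53 targets higher in SNM knockdown cells numbered 1 with quantile normalization, 1 with the 75th percentile, 2 with an offset of 50 and 2 with the mean over probes. Those lower at the neuronal stage numbered 3 under quantile normalization, the 75th percentile and an offset of 50. The 75th percentile put the median of all probes from ES to SNM at -0.17 in control and -0.21 in HPRT-knockdown cells.

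With no minimum fold, 3 genes were lower at the neuronal stage under the 75th percentile, and 0 were higher with no detection filter. In SNM 3 were lower by the methods' t-test after adjustment. At the ES stage 1 was lower with the mean over probes and 1 by the unadjusted t-test. No share of all probes at any fold was counted under these settings.

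The mean over probes turned the sign of Ccng1, whose probes disagree, between cell types at the ES stage (-0.12), from ES to SNM in control (-0.28) and HPRT-knockdown cells (-0.67) and in the next step of control cells (-0.033). It also turned Gadd45a at the ES stage (-0.036), the change in knockdown effect of Trp53 from ES to SNM (0.031) and that of Mdm2 between the later stages (0.19, and 0.15 with the 75th percentile). Perp at the ES stage was -0.032 with the 75th percentile.

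With each array left out in turn, the genes lower in SNM knockdown cells numbered 0 to 1, and those with a lower knockdown effect 0 to 1 from ES to SNM and 1 to 2 between the later stages. With no minimum fold, 0 to 1 were higher in SNM (1 without knockdown array 1) and 0 to 1 at the neuronal stage. At 1.5-fold, 3 to 5 other p53 targets were higher in SNM. Values near 0 changed sign within their ranges between cell types at the ES stage for Ccng1 (-0.0023 to 0.10), Gadd45a (-0.0031 to 0.074), Mdm2 (-0.11 to 0.027), Perp (-0.089 to 0.13) and Plk2 (-0.046 to 0.046). The same held for Bax from ES to SNM in control cells (-0.11 to 0.022) and for the change in knockdown effect between the later stages of Bax (-0.050 to 0.085), Mdm2 (-0.061 to 0.049) and Trp53inp1 (-0.034 to 0.10).

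With the array number as a replicate block, no call of the 10 genes changed: Gadd45a in SNM was at -0.59 (adjusted p = 1.15e-06, limma) and Plk2 at the neuronal stage at -1.13 (adjusted p = 1.15e-08, limma).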
